A study of Homo sapiens with 18 samples.

Results

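The genes described are CIITA, the master switch of major histocompatibility complex (MHC) class II transcription, and 9 genes of the class II machinery: HLA-DRA, HLA-DRB1, HLA-DPA1, HLA-DPB1, HLA-DQA1, HLA-DQB1, HLA-DMA, HLA-DMB and CD74. They were chosen by name, and all 10 of the 10 have a row among the 25369 genes listed in each expression table. Total RNA of the human mantle cell lymphoma lines JEKO1 and MAVER was sequenced in 18 libraries, 3 in each of 6 groups. JEKO1 received DMSO, the solvent, or IB; MAVER received DMSO, IB, KPT or PU, and every culture was taken at 6 h. IB is read here as ibrutinib at 0.4 µM, an inhibitor of the kinase BTK, and KPT as selinexor at 1.5 µM, an inhibitor of the nuclear exporter XPO1, because the series description names those agents. The labels define neither PU nor its dose. Each line is a single tumour line, and how the 3 cultures of a group were kept apart is not stated, so p-values speak for variation among these libraries, which may be technical. The study asked which transcripts change early under the inhibitors.

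Class II molecules are pairs of an alpha and a beta chain (DR, DP and DQ) that carry peptides from endosomes to the surface of B cells and other antigen-presenting cells, where CD4 T cells read them. CD74, the invariant chain, holds new pairs and guides them to endosomes, and HLA-DM exchanges the remnant of CD74 for a peptide. CIITA does not bind DNA itself: it docks on a complex of RFX, CREB and NF-Y proteins that sits on the X and Y boxes upstream of class II genes and CD74. Mature B cells make CIITA constitutively, and class II expression by B cell lymphomas bears on how T cells see them.

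The depth of the libraries, as reads recovered from the deposited values, ran from 5374226 in KPT replicate A to 17040599 in PU replicate B. Both lines carried markers of their labelled identity: all 6 B cell markers and both mantle cell lymphoma markers, CCND1 and SOX11, had a mean normalized count of at least 10 in each line. No T cell marker of 4 reached that level in either line, and of 6 myeloid and dendritic cell markers 1 (ITGAM) reached it in MAVER and 0 in JEKO1. Of 2 plasma cell markers, SDC1 and PRDM1, 2 reached it in MAVER (means of 106 and 193) and 1 (PRDM1) in JEKO1 (37.2). EGR1, an immediate early gene downstream of B cell receptor signalling, ran from 15.5 to 21.2 normalized counts in the JEKO1 libraries labelled DMSO and from 195 to 227 in those labelled IB, whereas in MAVER it ran from 25.7 to 43.3 with DMSO and from 0 to 0.963 with IB. The directions below therefore hold for the JEKO1 labels as given; a drug response and exchanged labels cannot be told apart there. RNA45S5, the ribosomal RNA precursor, stood at 53819 and 66933 normalized counts in KPT replicates A and C and at 9092 in KPT replicate B.

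A class II gene listed at 0 in these tables cannot be read as silent. Of 123 protein-coding genes matched between HLA-F and HLA-DPB1 on chromosome 6 in RefSeq's gene order, 74 (60.2%) were listed at 0 reads in all 18 libraries, against 3886 of 18750 (20.7%) outside that stretch and 21.6% on the rest of chromosome 6. Examples were picked after their values were seen. DDX39B, an RNA helicase used by nearly all cells, and PSMB9, an inducible immunoproteasome subunit, had 0 reads in 18 of 18 libraries. HLA-E and BAG6, also widely used, had 0 reads in 17 of 18 and 1 read in the other. B2M, the partner of MHC class I chains encoded on another chromosome, had 8336 to 43030 reads per library. By that count the span from HLA-DRA to HLA-DPB1 was less affected, with 4 of 18 genes (22.2%) at 0. A mean normalized count of at least 10 was reached by 55.6% of its genes, and by 57.7% outside HLA-F to HLA-DPB1. Neither share shows that a given gene there escaped the loss. TAP2, between HLA-F and HLA-DPB1, had 0 reads in 16 of 18 libraries and at most 1 in the others. Several HLA members also had few or no reads in a line, as given below. CD74 and CIITA lie on other chromosomes. Levels of the HLA members are accordingly compared between treatments of one line and not read as amounts.

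The promoters of 5 members are printed because these genes had at least 600 reads in each MAVER library, rose with KPT and fell with PU there. Each line gives the 150 bases upstream of the RefSeq start, 5′ to 3′ on the gene's strand. Capitals mark the Y box core (ATTGG or CCAAT, the NF-Y site) and the X box core (ACNGATG or CATCNGT). Positions are those of the GRCh38.p14 promoter table: CD74 at chr5:150412911-150413060 (minus strand), HLA-DRB1 at chr6:32589849-32589998 (minus), HLA-DPB1 at chr6:33075840-33075989 (plus), HLA-DQA1 at chr6:32637256-32637405 (plus) and HLA-DQB1 at chr6:32666658-32666807 (minus).
CD74: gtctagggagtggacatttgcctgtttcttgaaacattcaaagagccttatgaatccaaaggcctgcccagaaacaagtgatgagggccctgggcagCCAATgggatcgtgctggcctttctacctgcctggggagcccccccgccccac
HLA-DRB1: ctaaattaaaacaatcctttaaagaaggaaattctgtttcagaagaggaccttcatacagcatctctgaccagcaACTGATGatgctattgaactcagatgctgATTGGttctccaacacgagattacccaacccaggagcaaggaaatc
HLA-DPB1: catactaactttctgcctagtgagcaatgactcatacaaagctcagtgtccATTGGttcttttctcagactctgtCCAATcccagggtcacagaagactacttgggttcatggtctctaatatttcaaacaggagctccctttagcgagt
HLA-DQA1: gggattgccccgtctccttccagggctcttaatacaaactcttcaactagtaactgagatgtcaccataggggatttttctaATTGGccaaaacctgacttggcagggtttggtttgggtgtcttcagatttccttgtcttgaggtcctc
HLA-DQB1: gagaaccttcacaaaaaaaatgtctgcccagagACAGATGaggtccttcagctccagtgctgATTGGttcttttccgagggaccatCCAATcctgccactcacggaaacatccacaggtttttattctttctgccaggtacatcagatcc

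Of the 10 genes, 8 matched the promoter table; CIITA and HLA-DRA had no entry. Over the 250 upstream bases, searched on both strands, the Y box core occurred in 7 of 8 members and in 32.0% of 35116 promoters, and the X box core in 5 of 8 members and 6.35% of promoters. The longer form CTGATTGG or CCAATCAG, which contains the Y box core, occurred in HLA-DRB1, HLA-DQB1 and HLA-DMA and in 3.81% of promoters. In HLA-DRB1 the X box core ended at base -69 and a Y box core began at base -46 from the start. In HLA-DQB1 these positions were -111 and -88, in HLA-DMA -103 and -79, and in HLA-DMB -78 and -22. HLA-DRB1, HLA-DQB1 and HLA-DMA each had a further Y box core, beginning at -195, -64 and -49. HLA-DPB1 and HLA-DQA1 showed Y box cores and no X box core in this spelling. In CD74 the match to the X box core was CATCTGT at -209 to -203, outside the printed stretch, and the Y box core began at -53. Whether that match is the X box of CD74 was not tested. Other spellings of the X box were not searched, so the printed stretch may hold one that is unmarked. The motifs were picked with the expression values known, and a match is a description of letters.

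Reads were present for 9 members in JEKO1 and 8 in MAVER, and the members measured differed between the lines. HLA-DMB, the beta chain of HLA-DM, had 0 reads in all 18 libraries, and HLA-DPA1, the DP alpha chain, had 0 in all 12 MAVER libraries and 3 to 11 in each JEKO1 library. The limit that a count of 0 allows, 3 reads, is 0.176 to 0.558 RPM (reads scaled to a common library total) across the libraries, covering counting error only. HLA-DMA had 4 reads over the 12 MAVER libraries (8 at 0) and 16 to 43 per library in JEKO1. HLA-DRA, the DR alpha chain, had 1 read in each JEKO1 library labelled DMSO, 0 in each labelled IB, and 45 to 123 per library in MAVER. HLA-DQA1 and HLA-DQB1, the DQ chains, had 1 to 3 and 13 to 31 reads per JEKO1 library and 686 to 2401 and 1145 to 3197 per MAVER library. The tables were normalized separately, so these differences between lines carry no test. Genes with a mean normalized count of at least 10 over the libraries of a line were tested, which kept 6 members in JEKO1 (CD74, CIITA, HLA-DRB1, HLA-DPB1, HLA-DQB1 and HLA-DMA) and 7 in MAVER (CD74, CIITA, HLA-DRA, HLA-DRB1, HLA-DPB1, HLA-DQA1 and HLA-DQB1).

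**Figure D1:**
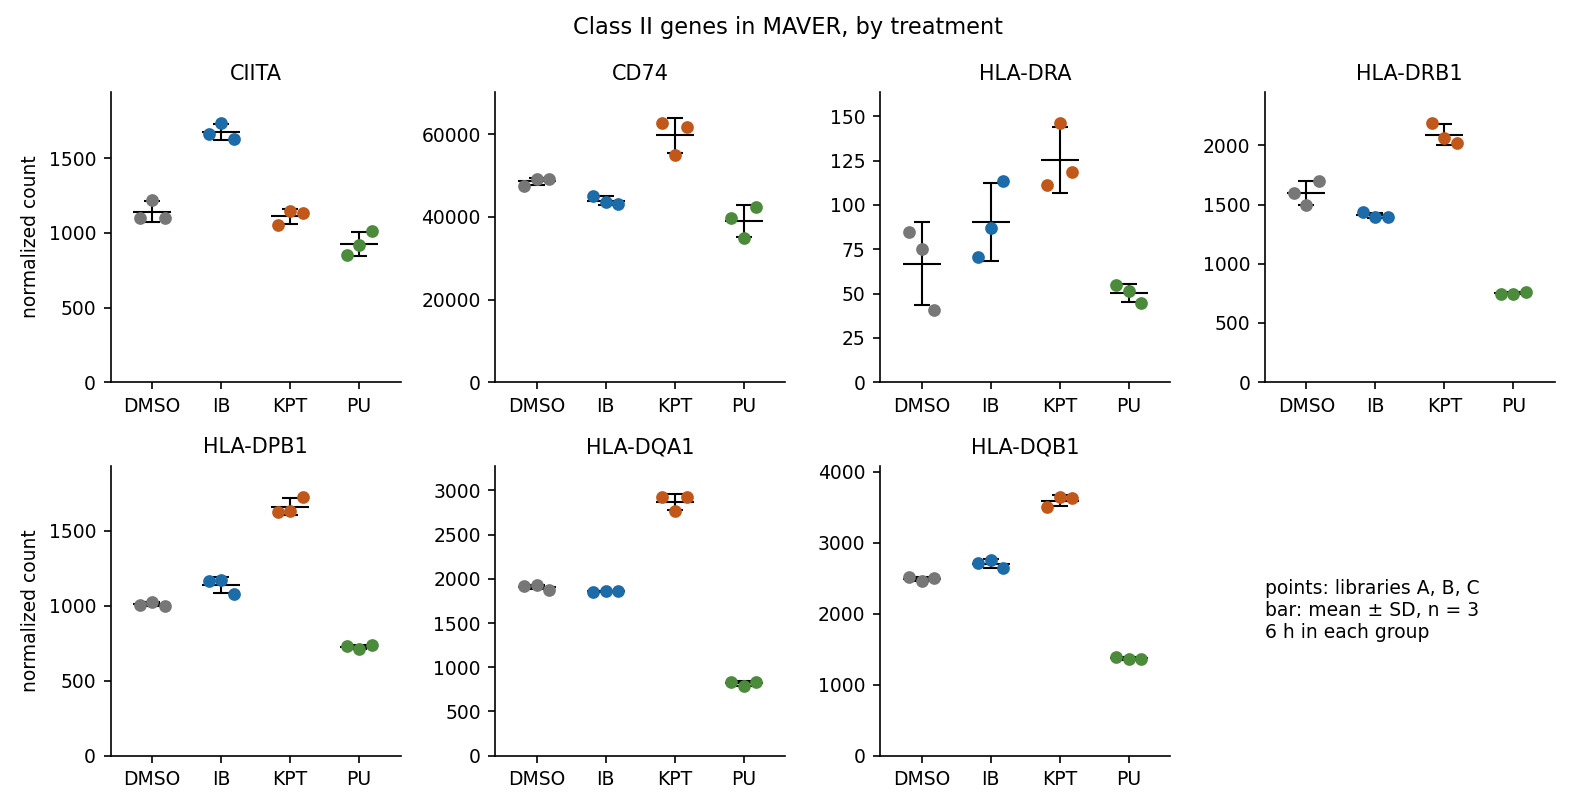
Normalized counts (vertical axes, from 0) of the 7 members tested in MAVER, by treatment; points are libraries and bars the mean ± SD (n = 3). HLA-DQA1 lies at 2770 to 2931 with KPT, 1877 to 1929 with DMSO and 786 to 834 with PU, while CIITA is highest with IB (1630 to 1736).

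With KPT the class II chains and CD74 rose in MAVER, while the CIITA transcript did not pass the test. Of the 7 tested members, 6 rose and 0 fell, where 27.3% of 11099 genes tested rose and 28.5% fell (limma, Benjamini-Hochberg adjusted p under 0.05, log2 of the normalized count + 1; fold changes are on that scale). By edgeR and DESeq2, and at an unadjusted p under 0.05, each count of 0 members in the comparisons here was 0 as well. The median log2 fold change was 0.53 over the 7 members and -0.00 over all genes tested.

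HLA-DPB1, the DP beta chain, read 1007, 1022 and 997 normalized counts in the DMSO libraries A, B and C and 1621, 1632 and 1727 with KPT. All KPT libraries lay above all DMSO libraries, which was 0.72 ± 0.05 on the log2 scale (± is the SE of a fold change throughout; limma adjusted p = 3.46e-15). HLA-DQA1, the DQ alpha chain, read 1916, 1929 and 1877 with DMSO and 2921, 2770 and 2931 with KPT. That is a log2 fold change of 0.59 ± 0.05 (limma adjusted p = 2.95e-14), with no overlap. The KPT and DMSO libraries did not overlap for 60.4% of the genes tested, so a lack of overlap was common. Its partner HLA-DQB1 read 2510, 2462 and 2499 with DMSO and 3499, 3649 and 3625 with KPT, a rise of 0.53 ± 0.04 (limma adjusted p = 7.3e-14).

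HLA-DRB1, a DR beta chain, read 1597, 1496 and 1700 with DMSO and 2188, 2065 and 2019 with KPT, a log2 fold change of 0.39 ± 0.05 (limma adjusted p = 1.83e-08). CD74 read 47492, 49069 and 49183 with DMSO and 62701, 54865 and 61759 with KPT, a log2 fold change of 0.30 ± 0.05 (limma adjusted p = 1.52e-06). Both genes were higher in every KPT library than in any DMSO library. HLA-DRA read 84.7, 75.3 and 40.6 with DMSO and 111, 146 and 118 with KPT. Its log2 fold change of 0.95 ± 0.19 (limma adjusted p = 5.28e-05) had the widest interval of the 7, and DMSO replicate C stood low.

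CIITA read 1102, 1222 and 1101 with DMSO and 1053, 1145 and 1136 with KPT. The groups overlapped, and the difference of -0.04 ± 0.06 (limma adjusted p = 0.594) had a 95% interval from -0.15 to 0.08. Its sign turned without DMSO replicate B (0.01), without KPT replicate A (0.0008) and without the KPT libraries A and C that were rich in RNA45S5 (0.01). The count of 6 rises was the same without those KPT libraries. In these bulk cultures, fewer cells of a state and less RNA per cell cannot be told apart.

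PU had the opposite direction. Of 7 members, 6 fell and 0 rose, where 27.5% of the genes tested fell and 27.6% rose, and the median log2 fold change was -0.47 over the members and 0.01 over all genes. HLA-DQA1 read 832, 786 and 834 normalized counts in the PU libraries, all below every DMSO library, a log2 fold change of -1.22 ± 0.05 (limma adjusted p = 1.88e-24). HLA-DRB1 read 748, 748 and 759 with PU, a log2 fold change of -1.08 ± 0.05 (limma adjusted p = 2.61e-21), and HLA-DQB1 read 1393, 1357 and 1368, a log2 fold change of -0.86 ± 0.04 (limma adjusted p = 1.37e-20). These 3 transcripts thus stood at 0.429 to 0.551 of their DMSO level.

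The falls of the other members under PU were smaller. HLA-DPB1 read 730, 712 and 738, a log2 fold change of -0.47 ± 0.05 (limma adjusted p = 2.7e-10). CD74 read 39674, 34912 and 42468, a log2 fold change of -0.32 ± 0.05 (limma adjusted p = 3.37e-07). CIITA read 854, 919 and 1012, a log2 fold change of -0.30 ± 0.06 (limma adjusted p = 2.29e-05), and no PU library reached a DMSO library. The PU and DMSO libraries did not overlap for 61.2% of the genes tested. HLA-DRA read 54.7, 51.6 and 44.7 and overlapped with the solvent group (-0.34 ± 0.19, limma adjusted p = 0.13); without DMSO replicate C it was called, at -0.66 (limma adjusted p = 0.00255).

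**Figure D2:**
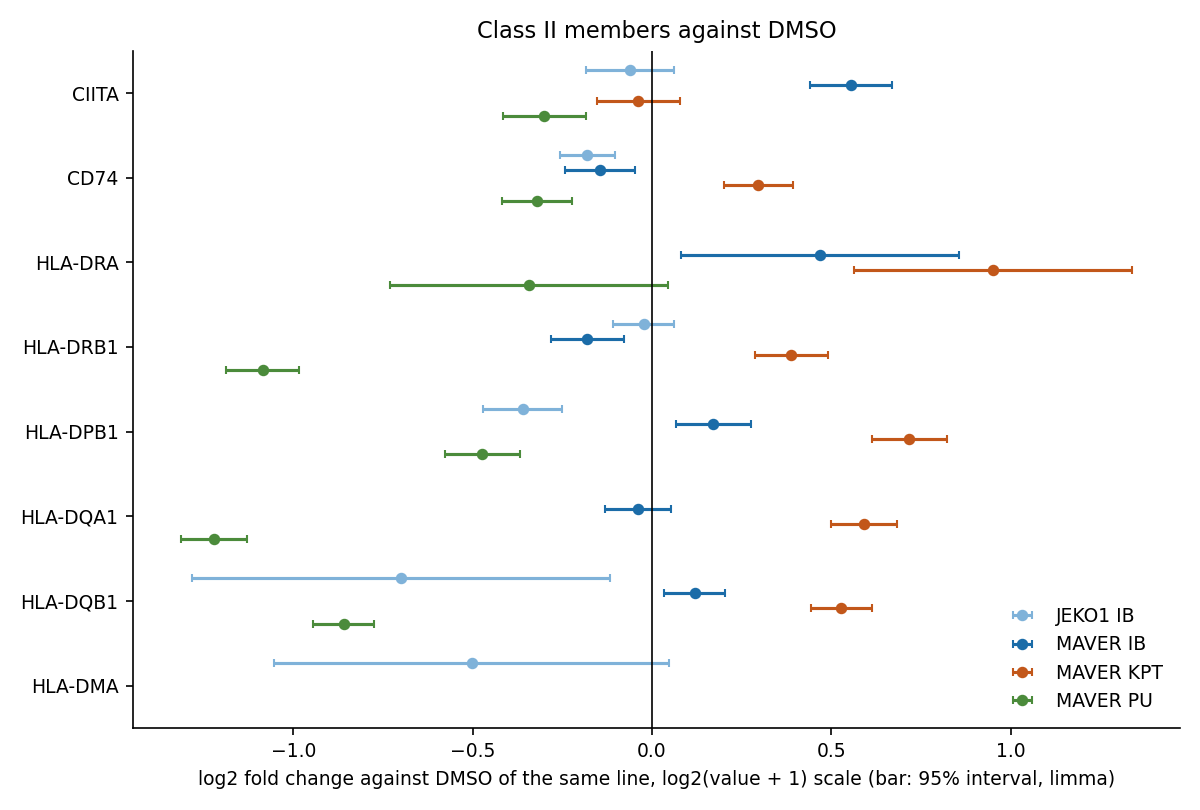
Log2 fold change against DMSO of the same line (horizontal axis; points with 95% intervals from limma) for each tested member, coloured by line and treatment. The KPT points lie right of 0 for every member except CIITA (-0.04), the PU points lie left of 0, and CIITA under IB in MAVER lies at 0.55.

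With IB in MAVER, CIITA rose, and the called changes of the genes it serves were smaller and went both ways. Of 7 members, 3 rose and 2 fell, where 10.1% of the genes tested rose and 9.65% fell. CIITA read 1661, 1736 and 1630 normalized counts with IB, above every DMSO library, a log2 fold change of 0.55 ± 0.06 (limma adjusted p = 2.91e-10) that was called in every alternative run. Among the chains, HLA-DPB1 read 1167, 1169 and 1075 (0.17 ± 0.05, limma adjusted p = 0.0136) and HLA-DQB1 2715, 2759 and 2645 (0.12 ± 0.04, limma adjusted p = 0.0376). HLA-DRB1 fell to 1435, 1393 and 1398 (-0.18 ± 0.05, limma adjusted p = 0.00774) and CD74 to 45115, 43585 and 43137 (-0.14 ± 0.05, limma adjusted p = 0.027).

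HLA-DQA1 read 1848, 1867 and 1857 with IB, a difference of -0.04 ± 0.05 (limma adjusted p = 0.636). It was not called although its IB libraries all lay below its DMSO libraries. The IB and DMSO libraries did not overlap for 33.8% of the genes tested. HLA-DRA read 70.3, 87.2 and 114 and overlapped with DMSO (0.47 ± 0.19, limma adjusted p = 0.0834). The 4 small calls under IB depended on single libraries. The limma adjusted p of CD74 was 0.0705, 0.0933, 0.0855 and 0.0901 without DMSO B, DMSO C, IB B and IB C, and that of HLA-DRB1 was 0.1 without DMSO C. For HLA-DPB1 it was 0.0522, 0.0697 and 0.0724 without DMSO C, IB A and IB B. For HLA-DQB1 it was 0.0774, 0.111, 0.0794, 0.0934 and 0.136 without DMSO A, B and C, IB A and IB B. HLA-DRA was called without DMSO A, DMSO B or IB A (limma adjusted p = 0.02, 0.0462 and 0.0279).

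In JEKO1 the libraries labelled IB had lower HLA-DPB1 and CD74 and a CIITA level that did not pass the test. Of the 6 tested members, 2 fell and 0 rose, where 20.2% of 11609 genes tested fell and 21.9% rose. The median log2 fold change was -0.27 over the 6 members and -0.01 over all genes. HLA-DPB1 read 2389, 2384 and 2083 normalized counts in the libraries labelled DMSO and 1738, 1809 and 1781 in those labelled IB, a log2 fold change of -0.36 ± 0.05 (limma adjusted p = 1.27e-05). CD74 read 34850, 34429 and 33351 against 29150, 30300 and 31164, a log2 fold change of -0.18 ± 0.04 (limma adjusted p = 0.000464). Neither gene overlapped between the labels, as was the case for 50.2% of the genes tested.

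CIITA read 1984, 1959 and 1670 against 1865, 1782 and 1720, a difference of -0.06 ± 0.06 (limma adjusted p = 0.431). Without DMSO replicate C, the JEKO1 library with the most RNA45S5, it was -0.14 (limma adjusted p = 0.0257). HLA-DRB1 read 2938, 2837 and 2971 against 2875, 2873 and 2860 (-0.02 ± 0.04, limma adjusted p = 0.691; 95% interval -0.11 to 0.06). HLA-DQB1 read 26.7, 24.6 and 21.0 against 11.9, 18.3 and 13.6, without overlap, and missed the threshold at -0.70 ± 0.28 (limma adjusted p = 0.0503). It passed without IB replicate B (limma adjusted p = 0.036). HLA-DMA read 31.9, 48.1 and 30.5 against 31.8, 29.8 and 16.7, and overlapped (-0.50 ± 0.26, limma adjusted p = 0.137).

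**Figure D3:**
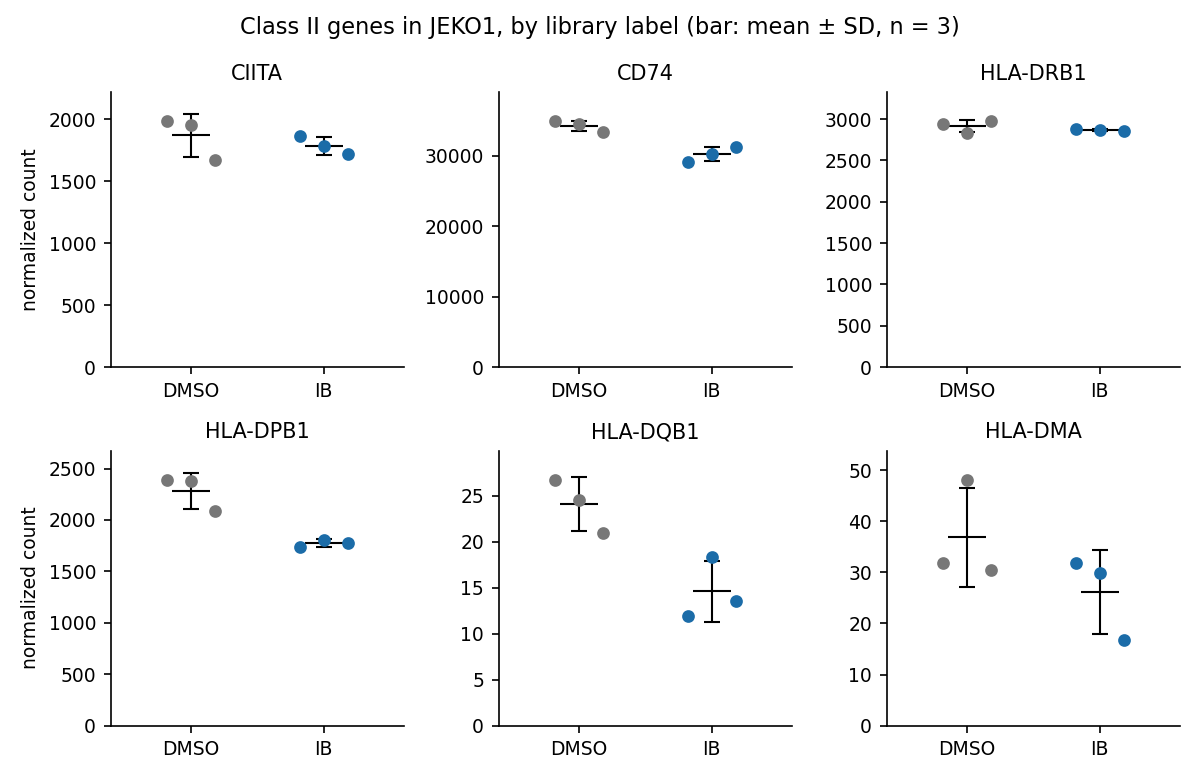
Normalized counts (vertical axes, from 0) of the 6 members tested in JEKO1, by library label; points are libraries and bars the mean ± SD (n = 3). HLA-DPB1 lies at 2083 to 2389 in the libraries labelled DMSO and at 1738 to 1809 in those labelled IB, while HLA-DRB1 overlaps.

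The response to IB differed between the lines for 4 of the 5 members that could be compared, tested as the IB effect in JEKO1 minus that in MAVER. The effect in JEKO1 was lower for 3 members and higher for 1, where 19.6% of 10632 genes tested were lower and 21.7% higher. CIITA differed by -0.62 ± 0.08 (limma adjusted p = 8.97e-07): it was called higher in MAVER and not called in JEKO1. HLA-DPB1 differed by -0.53 ± 0.07 (limma adjusted p = 1.6e-06) and HLA-DQB1 by -0.82 ± 0.16 (limma adjusted p = 0.000186), the latter resting on 13 to 31 reads per JEKO1 library. HLA-DRB1 differed by 0.16 ± 0.06 (limma adjusted p = 0.0492), and lost that call without any one of 9 of the 12 libraries, with a limma adjusted p as high as 0.177 without MAVER DMSO C. CD74 differed by -0.04 ± 0.05 (limma adjusted p = 0.609; 95% interval -0.14 to 0.07). With the JEKO1 labels exchanged, a calculation added after seeing the data, 3 members would be higher in JEKO1 and 1 lower: CD74 at 0.32, HLA-DRB1 at 0.20 and HLA-DQB1 at 0.58 (limma adjusted p = 2.29e-05, 0.022 and 0.0106) and CIITA at -0.49 (limma adjusted p = 7.69e-05). HLA-DPB1 would turn to 0.19 and miss the threshold (limma adjusted p = 0.0648). The lower CIITA effect and the higher HLA-DRB1 effect in JEKO1 kept their sign either way, and the other 3 did not. Exchanging the labels only turns the sign of the JEKO1 effect. That outcome therefore follows from the sizes of the effects above and is no test of the labels.

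Set against each other in MAVER, the treatments ordered most class II genes as KPT above DMSO and IB, and PU below. From KPT to PU, 7 of 7 members were lower and 0 higher (28.6% and 28.3% of the genes tested): HLA-DQA1 by -1.81 ± 0.05, HLA-DRB1 by -1.47 ± 0.05, HLA-DQB1 by -1.39 ± 0.04, HLA-DRA by -1.29 ± 0.19, HLA-DPB1 by -1.19 ± 0.05, CD74 by -0.62 ± 0.05 and CIITA by -0.26 ± 0.06. From IB to KPT, 6 members were higher (27% of the genes tested) and CIITA was lower (28.2%), at -0.59 ± 0.06 (limma adjusted p = 1.52e-11). HLA-DRA in that comparison overlapped (0.48 ± 0.19, limma adjusted p = 0.0305) and was not called without IB A, IB B or KPT B (limma adjusted p = 0.202, 0.0713 and 0.15), nor with no filter (0.105) or no trend (0.14), which leaves 5 higher members. From IB to PU, 7 members were lower and 0 higher (27.6% and 27.5%), with CIITA at -0.85 ± 0.06 and CD74 at -0.18 ± 0.05; CD74 lost the call without PU replicate B (-0.10, limma adjusted p = 0.0698) and with no trend (limma adjusted p = 0.0702). These MAVER comparisons share libraries and are not independent.

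The order of levels within MAVER was thus KPT, DMSO, IB, PU for CD74, HLA-DRB1 and HLA-DQA1, KPT, IB, DMSO, PU for HLA-DPB1, HLA-DQB1 and HLA-DRA, and IB, DMSO, KPT, PU for CIITA. The neighbours that did not pass the test were DMSO and IB for HLA-DQA1 and HLA-DRA, DMSO and PU for HLA-DRA, and DMSO and KPT for CIITA. Summed over the 8 HLA members, class II chain reads made up 749 ± 6.77 RPM with DMSO, 766 ± 8.35 with IB, 1082 ± 8.71 with KPT and 382 ± 3.50 with PU (SD, n = 3 each). CD74 supplied 85.5% of all member reads with DMSO, 83.2% with IB, 83.9% with KPT and 89.3% with PU. These are shares of reads and not per length. The HLA reads that enter them are not read as amounts, as stated above, whereas CD74 lies on another chromosome. The shares are therefore compared between treatments only and cannot show how far CD74 exceeds the chains.

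The ratio of each transcript to CIITA within a library, a measure added after the values were seen, showed how the genes parted. HLA-DRB1 over CIITA was 0.49 ± 0.17 on the log2 scale with DMSO, -0.25 ± 0.06 with IB, 0.91 ± 0.13 with KPT and -0.30 ± 0.11 with PU (SD, n = 3). HLA-DQA1 over CIITA was 0.74 ± 0.07, 0.15 ± 0.04, 1.37 ± 0.10 and -0.18 ± 0.13 in the same order. The IB and PU groups of HLA-DRB1 sat alike, although CIITA was highest in one and lowest in the other. HLA-DPB1 over CIITA was -0.18 ± 0.07, -0.56 ± 0.05, 0.58 ± 0.06 and -0.35 ± 0.12. CD74 over CIITA was 5.41 ± 0.08, 4.71 ± 0.06, 5.75 ± 0.16 and 5.39 ± 0.14, so that PU left it near its DMSO value. Within the DQ pair the ratio also varied by treatment, with no test of it: HLA-DQA1 over HLA-DQB1 was -0.39 ± 0.03 with DMSO, -0.54 ± 0.03 with IB, -0.32 ± 0.07 with KPT and -0.75 ± 0.04 with PU.

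**Figure D4:**
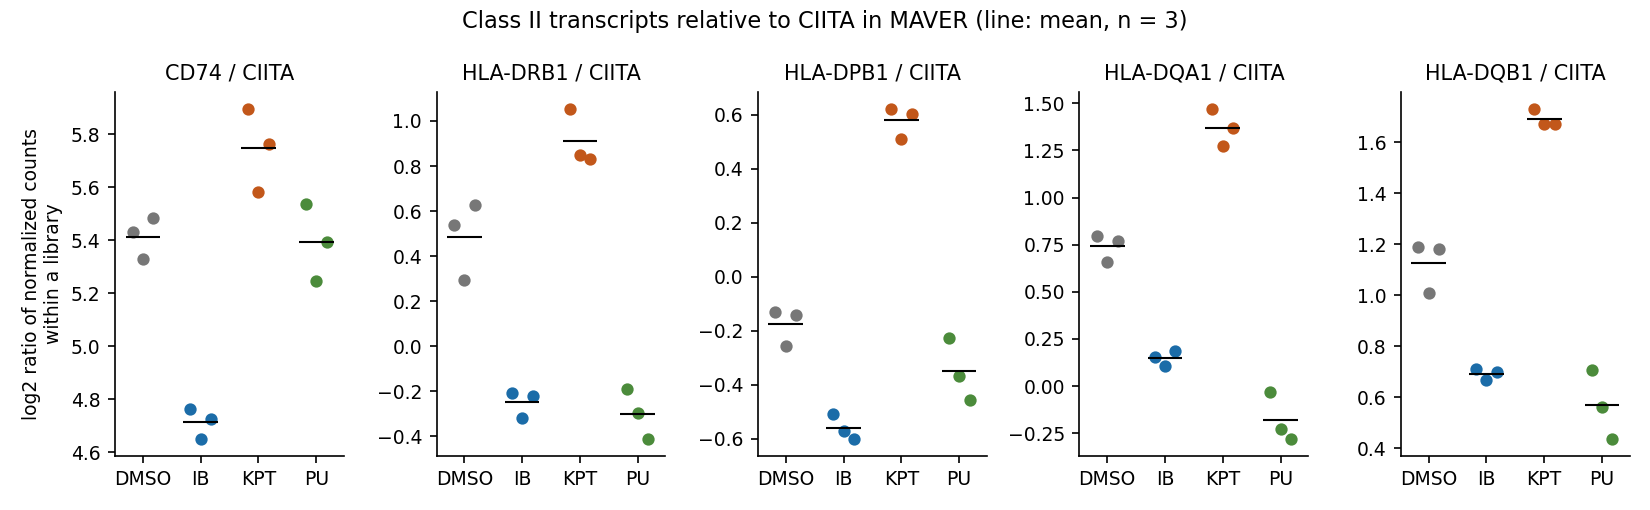
Log2 ratio of each transcript to CIITA within a library (vertical axes) in MAVER, by treatment; points are libraries, lines the mean (n = 3). KPT is highest in each panel, and IB lies below DMSO in each.

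Across the 12 MAVER libraries the chains followed each other more closely than they followed CIITA. Pearson's r of the log2 values was 0.993 for HLA-DQA1 with HLA-DQB1, 0.99 for HLA-DRB1 with HLA-DQA1 and 0.917 for HLA-DRB1 with HLA-DPB1. HLA-DRA followed the other chains less closely, with an r between 0.698 (HLA-DRB1) and 0.828 (HLA-DPB1). CIITA had an r between 0.054 (CD74) and 0.491 (HLA-DQB1) with the other members. These are descriptions over 12 libraries in 4 treatment groups. The genes most like CIITA over those libraries were PAX5 (r = 0.98), TCF3 (0.979) and LOC100129034 (0.977), whose r over the 6 JEKO1 libraries was -0.1, 0.463 and 0.722. For CD74 they included SLC25A23 (0.975) and FAM189B (0.969), with -0.995 and -0.887 in JEKO1. For HLA-DRA they were TMEM14C (0.941), NICN1 (0.919) and IPO5P1 (0.911).

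The lists of related genes below are set against the share of all genes called in either direction, which was 19.8% with IB in MAVER, 55.9% with KPT, 55.1% with PU and 42% in JEKO1. Among factors known to act on CIITA, 14 of 15 could be tested, and 71.4%, 50%, 64.3% and 71.4% of them were called in those comparisons; the shares with KPT and PU are near the background. With IB in MAVER 5 rose and 5 fell, with KPT 3 and 4, with PU 4 and 5, and in JEKO1 with the IB label 8 and 2; the list medians were 0.11, -0.05, -0.06 and 0.33. TCF3, the E protein E2A, went from 5021 ± 205 normalized counts with DMSO to 7970 ± 393 with IB in MAVER (SD, n = 3), a log2 fold change of 0.67 ± 0.05 (limma adjusted p = 5.14e-15). It was not called with KPT (0.07) and fell with PU (-0.39). PAX5, the B cell identity factor, rose with IB (0.28), was not called with KPT (-0.09) and fell with PU (-0.19). In JEKO1, TCF3 was lower (-0.34) and PAX5 higher (0.40) under the IB label, both called. SPIB, an ETS factor of B cells, fell under all 3 agents in MAVER (-0.84, -1.20 and -0.98) and was higher under the IB label in JEKO1 (1.06). IRF8, an interferon regulatory factor, fell with KPT (-0.63) and rose with PU (0.96), and MYB rose with IB (0.44) and KPT (1.02) and fell with PU (-0.29).

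Of the complex on which CIITA docks, 57.1% of the genes were called with KPT (background 55.9%) and 42.9% with PU (background 55.1%), so these counts are no result about the complex. Of its 7 genes 0 were called with IB in MAVER, 3 rose and 1 fell with KPT, and 1 rose and 2 fell with PU; in JEKO1 1 rose and 3 fell. The list medians were -0.05, 0.04, 0.02 and -0.14. With IB in MAVER 0 of the 7 had an unadjusted p under 0.05, and the smallest limma adjusted p was 0.42 (NFYB). RFX5, the RFX subunit mutated in one form of bare lymphocyte syndrome, rose with KPT (0.27 ± 0.05, limma adjusted p = 1.11e-05) and fell with PU (-0.38 ± 0.05, limma adjusted p = 1.4e-08). RFXAP, its partner, went from 177 ± 16.9 normalized counts with DMSO to 235 ± 26.3 with KPT and 98.1 ± 15.7 with PU (SD, n = 3), called in both. RFXANK, the other RFX subunit, was called in neither (0.04 and 0.13), and the NF-Y subunit NFYA rose with KPT (0.29). In the other direction, CREB1 went from 1379 ± 136 normalized counts with DMSO to 1166 ± 30.8 with KPT. NFYC, another NF-Y subunit, went from 967 ± 6.40 with DMSO to 1056 ± 30.0 with PU (SD, n = 3 each).

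**Figure D5:**
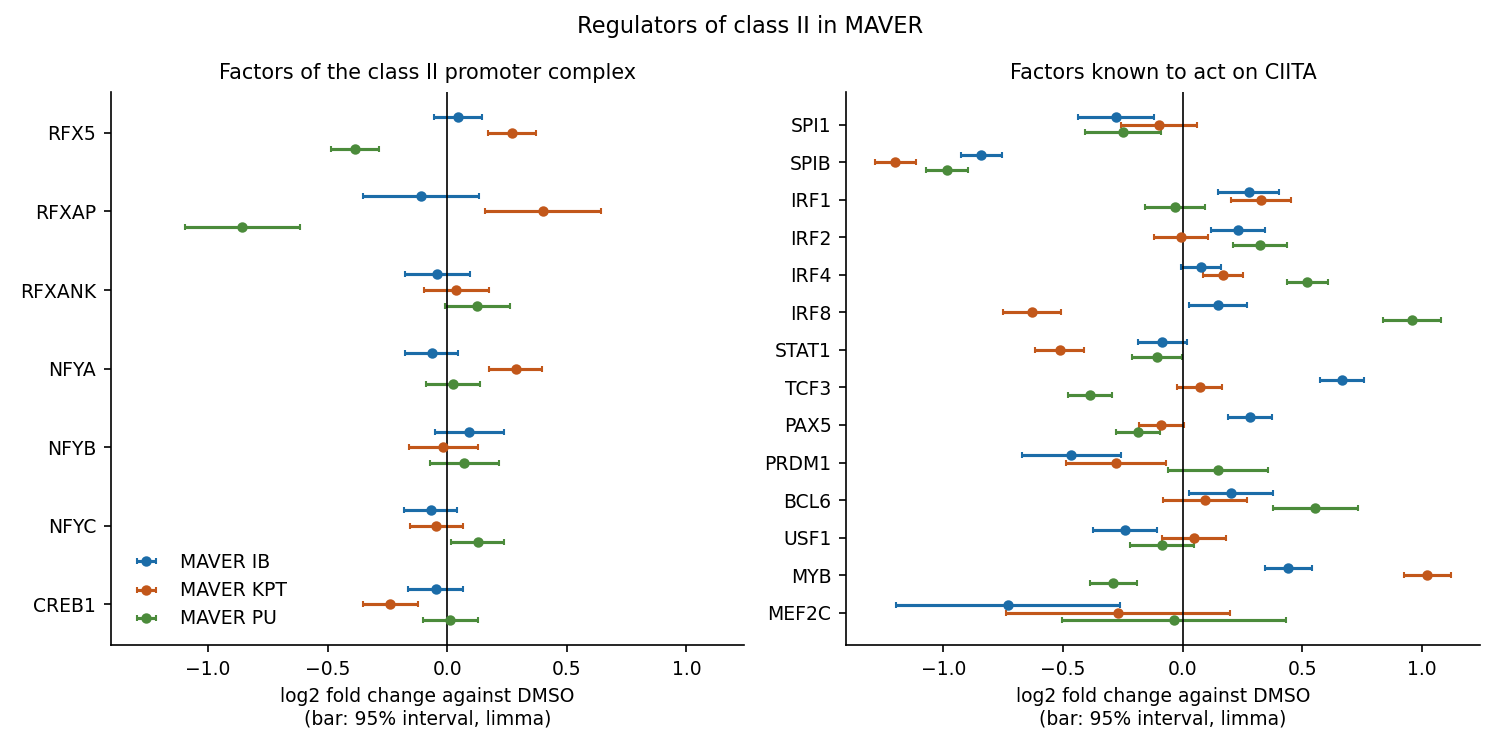
Log2 fold change against DMSO in MAVER (horizontal axes; points with 95% intervals from limma) for genes of the promoter complex (left) and factors known to act on CIITA (right). RFX5 and RFXAP lie right of 0 with KPT and left of 0 with PU. CREB1 lies left of 0 with KPT, and NFYC lies right of 0 with PU. TCF3 lies at 0.67 with IB.

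Of 9 coactivators and deacetylases that work with CIITA, 33.3% were called with IB in MAVER, 66.7% with KPT, 66.7% with PU and 77.8% in JEKO1. All genes were called at 19.8%, 55.9%, 55.1% and 42% in the same order. Among them 0 rose and 3 fell with IB in MAVER, 2 and 4 with KPT, 1 and 5 with PU, and 5 and 2 in JEKO1 (medians -0.06, -0.09, -0.23 and 0.17). At an unadjusted limma p under 0.05, 1 was higher with IB in MAVER. The acetyltransferase CREBBP rose with KPT (0.35) and PU (0.22), and SMARCA4, the chromatin remodelling ATPase, fell with both (-0.42 and -0.33). HDAC2, a histone deacetylase, fell with PU (-0.61). Of 6 tested genes of interferon gamma signalling, which induces CIITA in many cells, 1 rose and 2 fell with IB in MAVER. With KPT 2 rose and 3 fell, with PU 2 and 1, and in JEKO1 2 and 1. The medians, from IB in MAVER on, were -0.08, -0.13, 0.04 and 0.18. That is 50%, 83.3%, 50% and 50% of the list called, against 19.8%, 55.9%, 55.1% and 42% of all genes. The kinase gene JAK1 rose with all 3 agents in MAVER (0.45, 0.19 and 0.42) and was lower under the IB label in JEKO1 (-0.27).

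Genes that make and route class II peptides changed in both directions. Of 16 tested in each line, 68.8% were called with IB in MAVER, 81.2% with KPT, 68.8% with PU and 87.5% in JEKO1. The shares of all genes called were 19.8%, 55.9%, 55.1% and 42% in that order. By direction, 2 rose and 9 fell with IB in MAVER, 7 and 6 with KPT, 5 and 6 with PU, and 10 and 4 in JEKO1, with medians of -0.16, 0.12, -0.00 and 0.36. LGMN, an asparaginyl endopeptidase of endosomes, rose from 438 ± 3.60 normalized counts to 1200 ± 15.3 with KPT (SD, n = 3), a log2 fold change of 1.45 ± 0.06 (limma adjusted p = 7e-23). CTSS, the cathepsin that trims CD74 in B cells, rose with KPT (0.53), fell with IB (-0.18) and was not called with PU (0.05). IFI30, a lysosomal thiol reductase, fell with IB (-0.81) and PU (-0.32) and rose with KPT (0.22). CTSZ, another cathepsin, fell with all 3 (-0.95, -1.16 and -0.18). In JEKO1, CD83, which stabilises surface class II, stood at 163 ± 12.5 normalized counts under the DMSO label and 1078 ± 77.6 under the IB label.

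With IB in MAVER, 25% of the ligands and partners of CD74 were called, against 19.8% of all genes. The shares were 100% with KPT (all genes 55.9%), 75% with PU (55.1%) and 50% in JEKO1 (42%). Only 4 genes were tested, so these shares and their directions say little about the list. Of 4 tested, 1 rose with IB, 4 with KPT and 3 with PU, and 0 fell; in JEKO1 0 rose and 2 fell (medians 0.10, 0.35, 0.34 and -0.13). The counts of 0 were also 0 at an unadjusted limma p under 0.05. MIF, the cytokine that binds CD74, rose with KPT (0.34) and was not called with PU (-0.02). CXCR4, the chemokine receptor that pairs with CD74, rose with all 3 agents (0.44, 0.57 and 0.41) and was lower under the IB label in JEKO1 (-0.71). CD74 itself had gone up with KPT and down with PU.

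Of 9 further class II genes, 3 were tested in MAVER and 2 in JEKO1. The called share was 0% with IB in MAVER, 66.7% with KPT, 100% with PU and 0% in JEKO1. For all genes it was 19.8%, 55.9%, 55.1% and 42%. With so few genes, these shares say little about the list. HLA-DRB5, HLA-DRB6 and HLA-DOA were not called with IB, 2 rose with KPT (HLA-DRB5 at 0.59 and HLA-DRB6 at 0.74) and 3 fell with PU (HLA-DRB5 at -0.92, HLA-DRB6 at -0.67 and HLA-DOA at -1.20), with medians of 0.13, 0.59 and -0.92. At an unadjusted limma p under 0.05, 1 was higher with IB and 3 with KPT, and 0 were lower with either. In JEKO1, HLA-DRB5 and HLA-DRB3 were not called (-0.19 and 0.46; median 0.14), nor was either below 0.05 unadjusted. HLA-DOA, a chain of the HLA-DM inhibitor, read 23.5 ± 8.73 normalized counts with DMSO and 9.37 ± 1.95 with PU (SD, n = 3). HLA-DRB1, HLA-DRB5, HLA-DRB6 and HLA-DRB3 are related in sequence to differing degrees, as are HLA-DQA1 with HLA-DQA2 and HLA-DQB1 with HLA-DQB2. HLA genes are also highly polymorphic. No source used here says how reads were shared among copies, so the split among these genes is uncertain.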

How the data were processed

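The 18 libraries come in 2 tables, 1 per line, holding signal values: normalized counts that the authors deposited, reads divided by 1 factor per library, each line scaled separately. Per the labels' protocols, single-end reads from a stranded kit were aligned with STAR; the submitters' processing notes also name Cufflinks, DESeq2, FastQC and hg19. No source used here states the counter, strand setting or annotation. Whole reads were recovered in 100% of values within 0.01 read, giving the depths. Groups come from the sample titles.

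Main test: limma 3.58.1 in R 4.3.3 on log2(normalized count + 1), intensity trend, genes with a mean of at least 10, all groups of a line in 1 fit and both lines for the IB difference, Benjamini-Hochberg adjustment over all genes tested, threshold 0.05. Alternatives were other pseudocounts (0.5 and 5), filters (none, 50) and scalings, no trend, compared groups alone, a replicate block, leaving out each library, and edgeR 4.0.16 and DESeq2 1.42.0 on recovered reads. The fits were tested on simulated data. Replicate libraries differed beyond counting noise (chi-square per degree of freedom 1.41 to 5.15), so none was merged.

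Named genes were all members and, from each pathway list, up to 4 genes a comparison plus those needed to describe class II; the genes most like CD74, CIITA and HLA-DRA were the 3 with the highest r over MAVER libraries among genes with a mean of at least 50, of which 1 is not reported here. Members and lists were chosen with earlier results of these data known. Promoters came from RefSeq's GRCh38.p14 table; no gene coordinates in hg19 were used.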

Additional observations from a re-analysis of the deposited data

Results flagged for a closer look

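The IB response of 4 members differed between the 2 lines by a test of the difference itself (limma, effect in JEKO1 minus effect in MAVER, log2 scale). CIITA differed by -0.62, HLA-DPB1 by -0.53, HLA-DQB1 by -0.82 and HLA-DRB1 by 0.16. For HLA-DPB1 the effects had opposite signs, at -0.36 in JEKO1 and 0.17 in MAVER. With the JEKO1 labels exchanged the differences would be -0.49 for CIITA, 0.19 for HLA-DPB1, 0.58 for HLA-DQB1 and 0.20 for HLA-DRB1, so those of HLA-DPB1 and HLA-DQB1 depend on labels that cannot be told apart from exchanged ones. EGR1 moved in opposite directions in the same libraries, by 3.52 in JEKO1 and -4.74 in MAVER, and its part in these differences was not tested.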

How the results depend on the processing

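The 6 rises with KPT, the 6 falls with PU and the CIITA rise with IB in MAVER were called under every alternative run. The 2 called JEKO1 falls, HLA-DPB1 and CD74, also held. With IB in MAVER, 1 member fell in place of 2 with no filter, with no trend and with DESeq2, which gave CD74 an adjusted p of 0.159, 0.238 and 0.178; with equal upper quartiles 1 member rose in place of 3, and with no trend HLA-DQB1 lost its rise (0.0586). Leaving out 1 library gave 1 to 3 rises and 0 to 2 falls there. For the difference between lines, 0 members in place of 1 were higher in JEKO1 with no filter, equal upper quartiles or no trend, and 0 to 1 without 1 library. With the JEKO1 labels exchanged, chosen after seeing the data, 3 were higher and 1 lower, and CD74 (0.3247), HLA-DPB1 (0.1892) and HLA-DQB1 (0.5792) changed sign. CIITA under KPT ran from -0.0632 to 0.0123 without 1 library and changed sign without DMSO B (0.0123), KPT A (0.0008) and the RNA45S5-rich KPT libraries (0.0064), the last chosen after seeing the data. HLA-DQB1 in JEKO1 was called with pseudocount 5, equal upper quartiles, no trend and edgeR (adjusted p 0.0465, 0.0455, 0.0231 and 0.0392). The cause of these changes was not tested. A filter at a mean of 50 removes HLA-DQB1 and HLA-DMA in JEKO1, so member counts were not made there.

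The labels do not say whether replicate letters pair the samples. Same-letter libraries had correlations of their deviations between -0.09 and 0.12, and other-letter libraries between -0.13 and 0.14. That description showed no pairing and cannot exclude it. With the replicate block, JEKO1 calls went from 4879 to 5507 genes, MAVER IB calls from 2197 to 2155, and every member count was the same (for KPT 6 rises, for PU 6 falls).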
